A study of Homo sapiens with 8 samples.

Results

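IFIT1, IFIT2, IFIT3 and IFIT5, the interferon-induced proteins with tetratricopeptide repeats, and RSAD2, also called viperin, were followed across 8 arrays of KBM7 cells. They were chosen by name: every probe set of the array that the platform annotation gives to one of the 5 genes was taken. This gave 8 probe sets, 1 for IFIT1 and IFIT3 and 2 for each of the other members, among 49395 probe sets and 18132 genes with a probe set of their own. All 5 genes reached the level required for comparison, a log2 intensity of at least 6 in at least 1 array, as did 11529 genes in all.

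IFIT proteins are cytoplasmic RNA-binding proteins that interferons induce strongly in most cells. IFIT1 binds capped RNA that lacks the methyl marks of host transcripts, IFIT3 binds and stabilises IFIT1, IFIT2 joins the same complexes and has been tied to apoptosis, and IFIT5 binds RNA that carries a bare triphosphate end. RSAD2 is a radical S-adenosylmethionine enzyme that converts CTP into a nucleotide on which many viral polymerases stop. Type I interferons reach such genes through the ISGF3 complex and interferon-stimulated response elements (ISREs), while IFN-gamma signals through the kinases JAK1 and JAK2 to gamma-activated sites (GAS) and induces IRF1, which also binds ISREs. TNF-alpha signals through the receptor TNFRSF1A to NF-kappaB.

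KBM7 is a near-haploid chronic myeloid leukaemia line, in which 1 gene trap insertion can disable a gene. The groups were JAK2 mutant cells given IFN-gamma, JAK2 mutant cells left unstimulated, wild-type (WT) cells given IFN-gamma, TNFRSF1A mutant cells given TNF-alpha, TNFRSF1A mutant cells left unstimulated, WT cells given TNF-alpha, and unstimulated WT cells. IFN-gamma was used at 100 ng/ml and TNF-alpha at 10 ng/ml, each for 6 h. The unstimulated WT group held 2 arrays: replicate 1 belongs with the IFN-gamma arrays as their control, and replicate 2 with the TNF-alpha arrays. Each of the other 6 groups had 1 array, so each mutant is 1 cell population here, and its genotype cannot be told apart from other differences of that population.

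The arrays were alike in level, with median intensities between 63.9 and 66.9. Values below the upper quartile of the array's 23 background probe sets, which lay at log2 5.76 to 6.04, are called here within the background range. Between the WT replicates the SD of the log2 difference over all genes compared was 0.38, and this served as the measure of spread. The 2 arrays belong to different experiments, so it may include differences between experiments. For the cytokine responses within a genotype the SD over all genes was smaller. It was 0.15 and 0.22 for IFN-gamma in the JAK2 mutant and WT, and 0.12 and 0.20 for TNF-alpha in the TNFRSF1A mutant and WT. Between the JAK2 mutant and WT of the same experiment it was larger, 0.40 unstimulated and 0.46 with IFN-gamma. Between the TNFRSF1A mutant and WT it was 0.31 unstimulated and 0.33 with TNF-alpha. With 1 array a group, a gene was called raised or lowered when it differed by at least 2-fold, with no p-value. JAK2 itself had log2 intensities of 5.32 and 5.08 in the stimulated and unstimulated JAK2 mutant, both within the background range, against 6.81 and 6.28 in stimulated WT and WT replicate 1. TNFRSF1A had 6.55 and 6.56 in the stimulated and unstimulated TNFRSF1A mutant, against 9.23 and 9.36 in WT with TNF-alpha and WT replicate 2. Of the 5 markers of the line that were measured, 4 lay above the background range in all 8 arrays, with summed intensities of 3864 to 4951, and SPI1 lay within it in all 8. None of 5 markers of T cells, B cells, epithelium, fibroblasts and hepatocytes was above the background range in any array, with sums of 162 to 184. The ratio of 3-prime to 5-prime actin signal, a measure of RNA integrity and labelling, was 6.47 and 5.74 in the stimulated and unstimulated JAK2 mutant, against 4.81 and 4.41 in stimulated WT and WT replicate 1. It was 5.53 and 4.51 in the stimulated and unstimulated TNFRSF1A mutant, against 4.81 and 3.27 in WT with TNF-alpha and WT replicate 2. The same ratio for GAPDH was 1.25 and 1.27 in the stimulated and unstimulated JAK2 mutant, against 1.20 and 1.21 in the matching WT arrays. For the TNFRSF1A mutant it was 1.15 and 1.14, against 1.14 and 1.09. Each ratio was higher in each mutant array than in its WT counterpart, by less for GAPDH. Their part in the differences between mutants and WT was not tested.

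The IFIT genes lie together on chromosome 10, in the order IFIT2 (chr10:89302046-89309271), IFIT3 (chr10:89327997-89340968), IFIT1 (chr10:89392623-89406487) and IFIT5 (chr10:89414568-89420997), and RSAD2 lies on chromosome 2 (chr2:6865885-6898239). These positions come from the RefSeq gene table of GRCh38.p14, all on the plus strand. RefSeq promoter sequences were matched by symbol for 4 of the 5 members, IFIT1, IFIT3, IFIT5 and RSAD2. They are shown because the members share an inducer and the letters of its response elements can be read in them. Each line gives the stretch from 160 bases before to 10 bases after the start site. Capitals mark the ISRE core, TTTCNNTTTC or its complement GAAANNGAAA, and the same blocks with a 1-base spacer, TTTCNTTTC or GAAANGAAA.
IFIT1, chr10:89392463-89392632, plus strand: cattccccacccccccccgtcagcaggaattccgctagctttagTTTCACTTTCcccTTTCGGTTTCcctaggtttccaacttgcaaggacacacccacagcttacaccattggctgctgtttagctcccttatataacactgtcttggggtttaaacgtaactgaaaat
IFIT3 upstream start, chr10:89327837-89328006, plus strand: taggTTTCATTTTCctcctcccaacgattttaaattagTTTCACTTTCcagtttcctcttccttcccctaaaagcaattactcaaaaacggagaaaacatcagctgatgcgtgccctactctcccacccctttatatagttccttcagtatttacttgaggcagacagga
IFIT3 downstream start, chr10:89332369-89332538, plus strand: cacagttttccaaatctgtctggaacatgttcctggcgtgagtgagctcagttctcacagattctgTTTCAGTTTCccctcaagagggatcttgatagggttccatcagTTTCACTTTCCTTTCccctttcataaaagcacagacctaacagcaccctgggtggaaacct
IFIT5, chr10:89414408-89414577, plus strand: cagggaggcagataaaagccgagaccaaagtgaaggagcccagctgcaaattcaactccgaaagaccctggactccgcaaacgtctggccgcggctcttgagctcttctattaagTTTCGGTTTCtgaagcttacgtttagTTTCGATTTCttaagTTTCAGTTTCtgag
RSAD2 upstream start, chr2:6865725-6865894, plus strand: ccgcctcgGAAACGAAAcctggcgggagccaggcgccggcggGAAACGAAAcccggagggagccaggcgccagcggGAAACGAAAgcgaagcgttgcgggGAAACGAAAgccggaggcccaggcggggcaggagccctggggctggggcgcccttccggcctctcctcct
RSAD2 downstream start, chr2:6877617-6877786, plus strand: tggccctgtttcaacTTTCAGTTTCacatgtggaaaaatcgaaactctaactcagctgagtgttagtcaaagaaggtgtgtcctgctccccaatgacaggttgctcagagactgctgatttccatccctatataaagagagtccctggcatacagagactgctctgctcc

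IFIT1 held 2 ISRE cores, at bases -116 to -107 (TTTCACTTTC) and -103 to -94 (TTTCGGTTTC) from its start. IFIT3 held 2 before its upstream start, at -156 and -122, and 2 before its downstream start, at -94 and -51. The second of these overlaps a 1-base-spacer match, TTTCCTTTC, at -45. IFIT5 held 3, at -45, -19 and -4, the last running across the start site. RSAD2 differed from the IFIT genes in layout. Its upstream start had no ISRE core but 4 copies of GAAACGAAA, at -152, -118, -84 and -60, and its downstream start had 1 ISRE core at -145. The copies at -84 and -60 are also in the promoter window of the neighbouring gene CMPK2, which starts on the opposite strand. There they begin at 11 and -14 from a CMPK2 start. Thus each of the 4 members held the core in at least 1 of its promoter windows of 300 bases, 250 before and 50 after the start. Of all 35116 promoter windows in the table, 3.57% held the core on either strand and 0.259% held it at least 2 times. The 1-base-spacer form was in 3.12% of them. The GAS letters TTCNNNGAA, which read the same on both strands, were in 7.66% of all windows and in none of the members' windows. Among the 70 genes raised by IFN-gamma in WT cells, 52 had a promoter in the table and 26 of these 52 held the ISRE core in at least 1 window, against 4.38% of all 27305 genes with a promoter. The GAS letters were in 15 of the 52 raised genes, against 9.38% of all genes, and the 1-base-spacer form also in 15, against 3.87%. The 52 genes were picked by these same IFN-gamma values, and IFIT1, IFIT3 and RSAD2 are among them and among the 26. They also had to be measured and to reach the required level, which the 27305 genes did not. The shares therefore come from unlike sets, and no enrichment was tested. These matches describe letters in a window and show no binding.

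**Figure D1:**
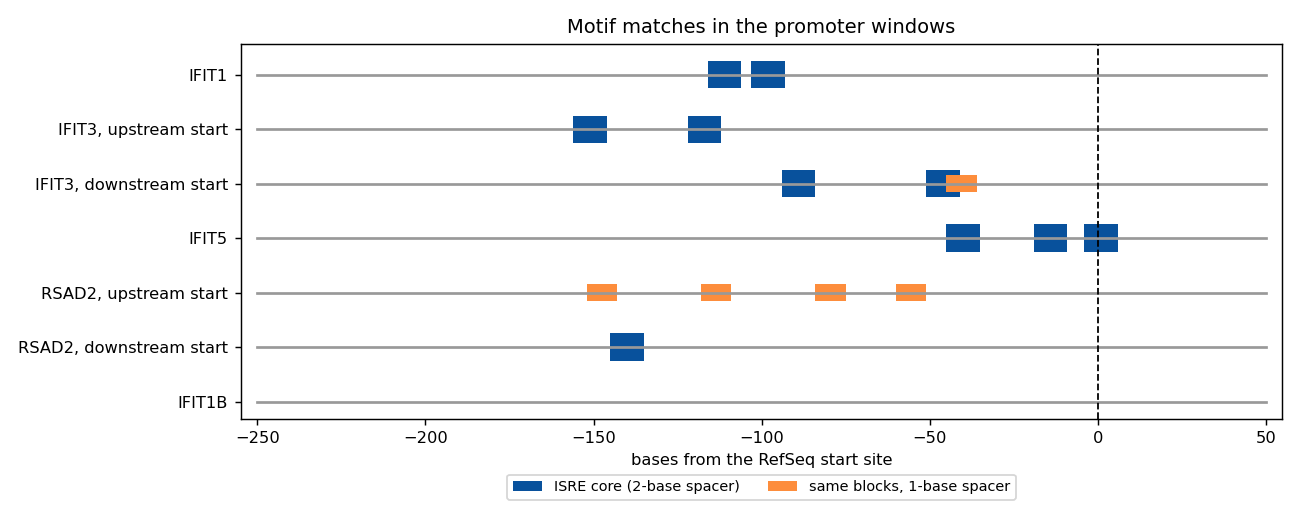
Positions of the motif letters in the RefSeq promoter windows of 4 members and of IFIT1B; the x axis gives bases from the start site (dashed line), tall blocks are ISRE cores and short blocks the 1-base-spacer form. The IFIT windows hold 2 or 3 cores each, the upstream RSAD2 window holds 4 short-spacer matches, and the IFIT1B window holds neither.

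IFN-gamma raised IFIT2, IFIT3, RSAD2 and IFIT1 in WT cells by between 2.20-fold and 6.25-fold, and IFIT5 by 1.94-fold on its brighter probe set, just under the 2-fold rule. So 4 of 5 members were raised, where 0.607% of all genes compared were raised and none was lowered. The members' median log2 difference was 1.56, against -0.02 for all genes. Among the 11529 genes compared, ordered from the largest increase down, IFIT2 was number 12, IFIT3 13, RSAD2 32, IFIT1 53 and IFIT5 76. The limma fit over all 8 arrays, which uses the mean of both WT arrays, passed no member for this response and 1 gene in all. Its Benjamini-Hochberg adjusted p-values were 0.165 for IFIT2, 0.181 for IFIT3, 0.613 for RSAD2 and 1.00 for IFIT1 and IFIT5, while all 5 members and 148 genes in all had an unadjusted p under 0.05. In bulk RNA, a larger share of responding cells and more transcript per responding cell cannot be told apart.

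IFIT2, the pro-apoptotic member, had a log2 intensity of 8.75 in the JAK2 mutant with IFN-gamma, 8.10 in the unstimulated JAK2 mutant, 12.28 in WT cells with IFN-gamma and 9.63 in WT replicate 1. In the TNF-alpha experiment it had 9.59 in the TNFRSF1A mutant with TNF-alpha, 9.57 in the unstimulated TNFRSF1A mutant, 10.12 in WT cells with TNF-alpha and 9.89 in WT replicate 2. WT cells with IFN-gamma stood highest by a wide margin, and both JAK2 mutant arrays stood below every other array. The IFN-gamma difference in WT was 2.64 on the log2 scale against replicate 1 and 2.39 against replicate 2. The dimmer IFIT2 probe set lay within the background range in both JAK2 mutant arrays, at 5.23 with IFN-gamma and 5.06 without, against 8.48 in WT cells with IFN-gamma and 5.99 in WT replicate 1. The last 2 values differ by 2.49 on the log2 scale. The set was within that range also in both TNFRSF1A mutant arrays, at 5.91 with TNF-alpha and 5.83 without, against 6.35 in WT cells with TNF-alpha and 6.29 in WT replicate 2. The 4 mutant values were the only member values, of 64, within that range.

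IFIT3, the partner that stabilises IFIT1, had a log2 intensity of 8.06 in the JAK2 mutant with IFN-gamma, 7.70 in the unstimulated JAK2 mutant, 11.17 in WT cells with IFN-gamma and 8.84 in WT replicate 1. The TNF-alpha experiment gave 8.39 in the TNFRSF1A mutant with TNF-alpha, 8.32 in the unstimulated TNFRSF1A mutant, 8.71 in WT cells with TNF-alpha and 8.45 in WT replicate 2. Again 1 array stood apart at the top, and the remaining 7 formed a run in which no step between neighbours exceeded 0.38. The WT difference with IFN-gamma was 2.34 on the log2 scale against replicate 1 and 2.73 against replicate 2, so the order of IFIT2 and IFIT3 depends on which WT array is the control. The single IFIT3 probe set is of the type whose probes may bind related transcripts.

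IFIT1, the sensor of unmethylated caps, had a log2 intensity of 8.54 in the JAK2 mutant with IFN-gamma, 8.42 in the unstimulated JAK2 mutant, 10.31 in WT cells with IFN-gamma and 9.18 in WT replicate 1. It had 8.72 in the TNFRSF1A mutant with TNF-alpha, 8.61 in the unstimulated TNFRSF1A mutant, 9.16 in WT cells with TNF-alpha and 9.17 in WT replicate 2. The arrays fell into 3 levels: WT with IFN-gamma, then the other 3 WT arrays, then all 4 mutant arrays, with steps beyond 0.38 only between these levels. The WT replicates differed by less than 0.01 for this gene, and the IFN-gamma difference in WT was 1.14 on the log2 scale against either replicate.

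IFIT5, which binds triphosphate RNA, had the smallest IFN-gamma difference of the 5 in WT when each gene is read from its brighter set. That probe set had a log2 intensity of 7.77 in the JAK2 mutant with IFN-gamma, 7.61 in the unstimulated JAK2 mutant, 8.65 in WT cells with IFN-gamma and 7.70 in WT replicate 1. Its values in the TNF-alpha experiment were 7.47 in the TNFRSF1A mutant with TNF-alpha, 7.55 in the unstimulated TNFRSF1A mutant, 7.74 in WT cells with TNF-alpha and 7.72 in WT replicate 2. Beyond the WT array with IFN-gamma, neighbouring arrays did not differ by more than 0.38. The dimmer set moved more in WT cells, with 8.49 with IFN-gamma and 6.97 in replicate 1, a 2.86-fold difference against the 1.94-fold difference of the brighter set. The 2 sets therefore lie on opposite sides of the 2-fold rule, and the mean of both placed IFIT5 among the raised genes at a log2 difference of 1.23.

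RSAD2 had a log2 intensity of 7.96 in the JAK2 mutant with IFN-gamma, 7.45 in the unstimulated JAK2 mutant, 10.40 in WT cells with IFN-gamma and 8.83 in WT replicate 1 on its brighter probe set. It had 8.40 in the TNFRSF1A mutant with TNF-alpha, 8.53 in the unstimulated TNFRSF1A mutant, 8.90 in WT cells with TNF-alpha and 9.06 in WT replicate 2. As for IFIT2, WT with IFN-gamma stood alone at the top and both JAK2 mutant arrays stood lowest. The difference in WT was 1.56 on the log2 scale against replicate 1 and 1.33 against replicate 2. The brighter RSAD2 set is, like the IFIT3 set, of the type whose probes may bind related transcripts. The dimmer set had 8.34 in WT cells with IFN-gamma, 7.18 in WT replicate 1 and 7.90 in WT replicate 2, so its IFN-gamma difference was 1.15 against replicate 1 but 0.43 against replicate 2, which misses 2-fold.

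**Figure D2:**
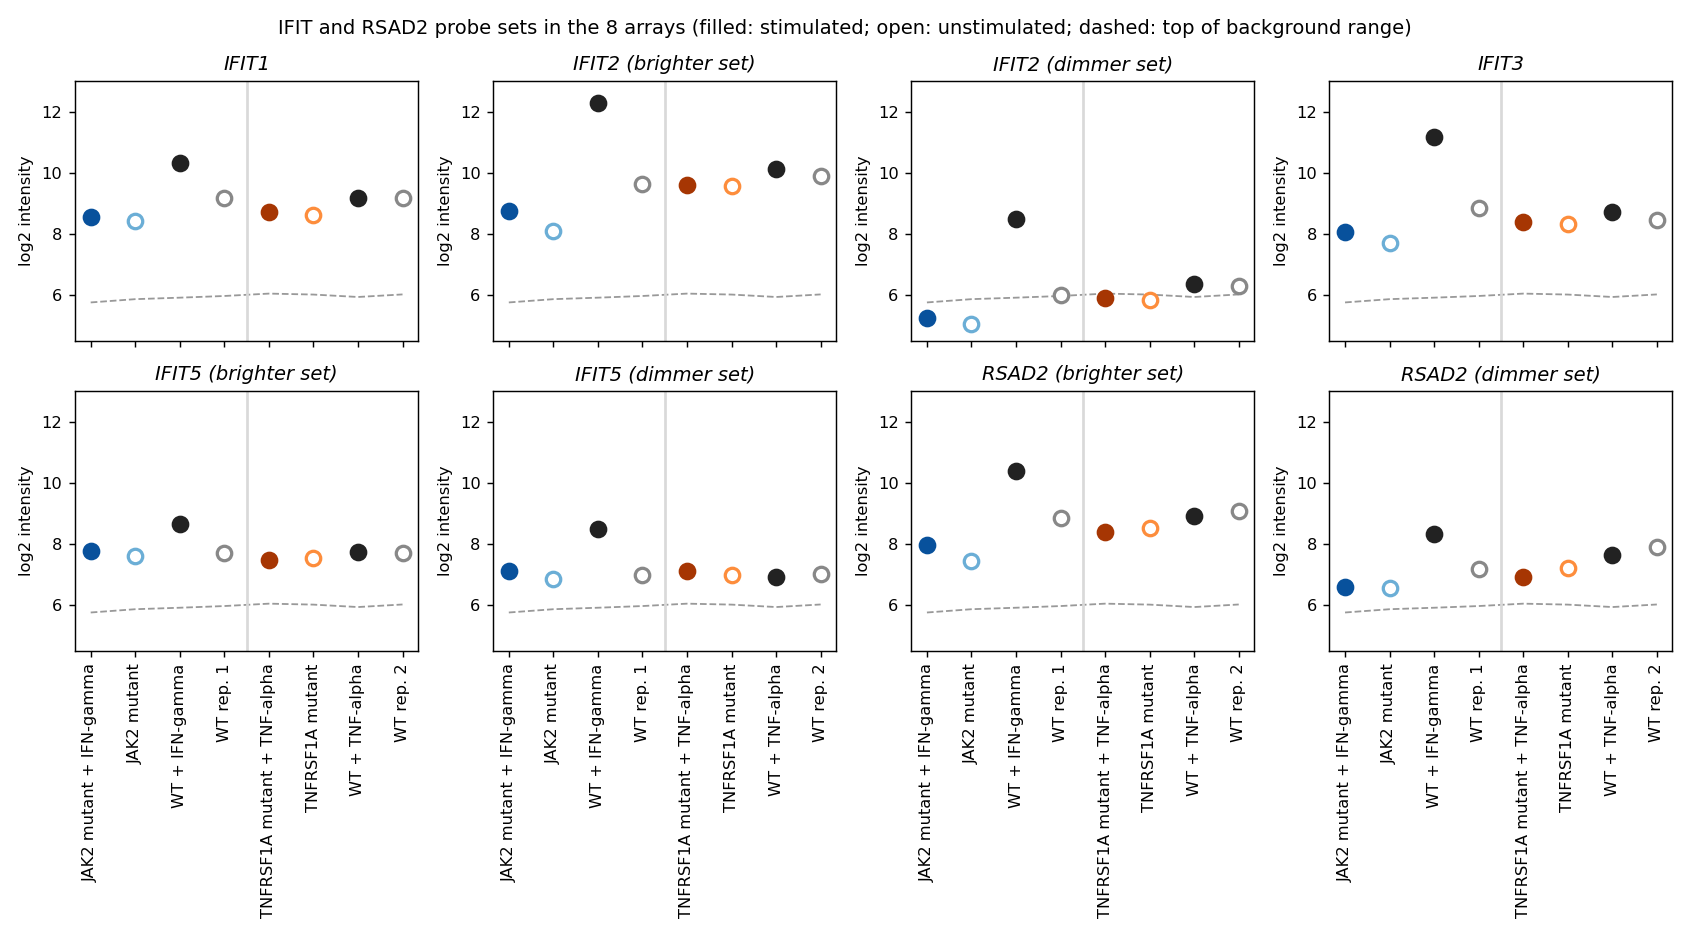
Log2 intensity of each of the 8 probe sets in each of the 8 arrays; each point is 1 array, filled where stimulated, and the dashed line is the top of the background range. WT cells with IFN-gamma hold the highest point in every panel, and the JAK2 mutant arrays hold the lowest for IFIT1, IFIT2, IFIT3 and RSAD2.

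In the JAK2 mutant no member reached 2-fold with IFN-gamma, and no gene at all did, 0% of those compared in either direction. All 5 members were nonetheless above their unstimulated value. The differences were 0.65 for IFIT2, 0.51 for RSAD2, 0.36 for IFIT3, 0.17 for IFIT5 and 0.12 for IFIT1 on the log2 scale, with a median of 0.36 against 0.00 for all genes. IFIT2 and RSAD2 exceeded the WT spread of 0.38, as did 2.64% of all genes, and stood at numbers 9 and 34 from the top of that comparison. IFIT3, within that spread, stood at number 131. IFIT2 alone passed 1.5-fold. The dimmer RSAD2 set did not repeat its value and showed 0.02. Both values of the dimmer IFIT2 set lay within the background range, so that set cannot show whether the difference repeats. The dimmer IFIT5 set gave 0.29, more than the 0.17 of the brighter set.

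On the linear scale, the intensity gained with IFN-gamma in the JAK2 mutant was 12.3% of the gain in WT cells for IFIT5, 8.37% for RSAD2, 4.36% for IFIT1, 3.73% for IFIT2 and 3.19% for IFIT3. On the dimmer sets the share was 10.8% for IFIT5, 1.44% for IFIT2 and 0.632% for RSAD2. The IFIT2 values of the mutant lay within the background range there. On the log2 scale, the mutant's gains for IFIT5, IFIT1 and IFIT3 lay within the WT spread of 0.38. On the brighter or only sets, the order of the members by this share is not their order by log2 difference. After IFN-gamma the mutant still lay below unstimulated WT replicate 1 for 4 members, with log2 differences of -0.89 for IFIT2, -0.87 for RSAD2, -0.78 for IFIT3 and -0.64 for IFIT1. Its IFIT5 level was 0.07 above that array.

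With IFN-gamma in both, 4 of 5 members were lowered in the JAK2 mutant against WT, where 2.67% of all genes were lowered and 0.347% raised. The mutant had 8.66% of the WT intensity for IFIT2, 11.5% for IFIT3, 18.5% for RSAD2, 29.3% for IFIT1 and 54.4% for IFIT5. A limma fit of all 7 groups, in which every single array is taken to vary as the WT pair does, passed IFIT2 (Benjamini-Hochberg adjusted p = 0.038) among 21 genes, and gave adjusted p-values of 0.054 for IFIT3, 0.071 for RSAD2, 0.132 for IFIT1 and 0.687 for IFIT5. The difference between the IFN-gamma responses of the JAK2 mutant and of WT was negative for all 5 members in the same limma fit. It was -2.17 with an SE of 0.40 for IFIT3, -1.87 with an SE of 0.36 for IFIT2 and -1.01 with an SE of 0.33 for IFIT1. RSAD2 had -0.94 with an SE of 0.36, and IFIT5 -0.78 with an SE of 0.33. None of the 11529 genes passed that limma interaction after Benjamini-Hochberg adjustment, with adjusted p-values of 1.00 for every member, and 61 genes had an unadjusted p under 0.05, IFIT1, IFIT2, IFIT3 and RSAD2 among them.

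**Figure D3:**
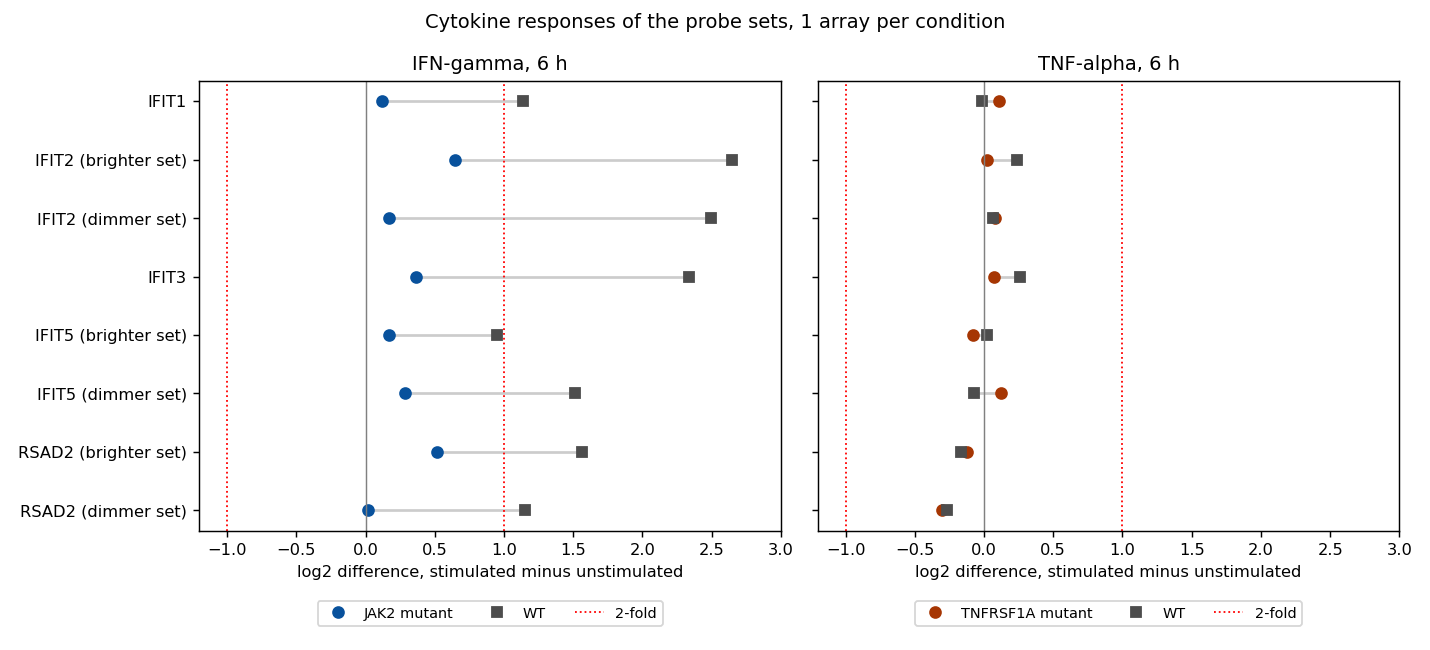
Log2 difference with cytokine minus without for each probe set, from 1 array per group; round points are the mutants, squares are WT, and dotted lines mark 2-fold. With IFN-gamma the WT squares lie between 0.95 and 2.64 and the JAK2 mutant points between 0.02 and 0.65, while with TNF-alpha no point reaches 2-fold.

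Before any cytokine was added, the JAK2 mutant already had less IFIT2, RSAD2 and IFIT3 than WT replicate 1. These 3 of 5 members were lowered, where 1.91% of all genes were lowered and 0.226% raised. The mutant held 34.6% of the WT intensity for IFIT2, 38.3% for RSAD2, 45.3% for IFIT3, 59.1% for IFIT1 and 93.7% for IFIT5. The median log2 difference of the members was -1.14, against 0.03 for all genes, and 4 members lay beyond the WT spread, as did 15.5% of all genes. Ordered from the largest decrease, IFIT2 was number 103 of 11529, RSAD2 120, IFIT3 174, IFIT1 360 and IFIT5 3427.

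The choice of WT array mattered for IFIT3. Against replicate 2 the log2 differences of the unstimulated JAK2 mutant were -1.79 for IFIT2, -1.61 for RSAD2, -0.76 for IFIT1, -0.75 for IFIT3 and -0.11 for IFIT5, so IFIT3 then missed 2-fold. IFIT2 and RSAD2, each read from its brighter set, passed it with either WT array. On its dimmer set RSAD2 gave -0.62 against replicate 1 and -1.34 against replicate 2, and IFIT2, within the background range in the mutant, was at least 1.09-fold lower than in replicate 1. The limma fit passed no member here, with Benjamini-Hochberg adjusted p-values of 0.149 for IFIT2, 0.185 for RSAD2, 0.595 for IFIT3, 0.621 for IFIT1 and 0.956 for IFIT5, and it passed 19 genes in all. Each member but IFIT5 had an unadjusted p under 0.05, as did 720 of the 11529 genes.

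The unstimulated TNFRSF1A mutant had all 5 members below WT replicate 2, none of them by 2-fold, where 0.607% of all genes were lowered and 0.373% raised. The log2 differences were -0.56 for IFIT1, -0.53 for RSAD2, -0.32 for IFIT2, -0.17 for IFIT5 and -0.13 for IFIT3. IFIT1 and RSAD2 lay beyond the WT spread of 0.38, as did 10.8% of all genes. Against replicate 1 they were -0.57 for IFIT1, -0.31 for RSAD2, -0.07 for IFIT2, -0.15 for IFIT5 and -0.52 for IFIT3, so that IFIT1 alone lay beyond the spread with both controls. The IFIT1 difference of the JAK2 mutant from its own control was -0.76.

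**Figure D4:**
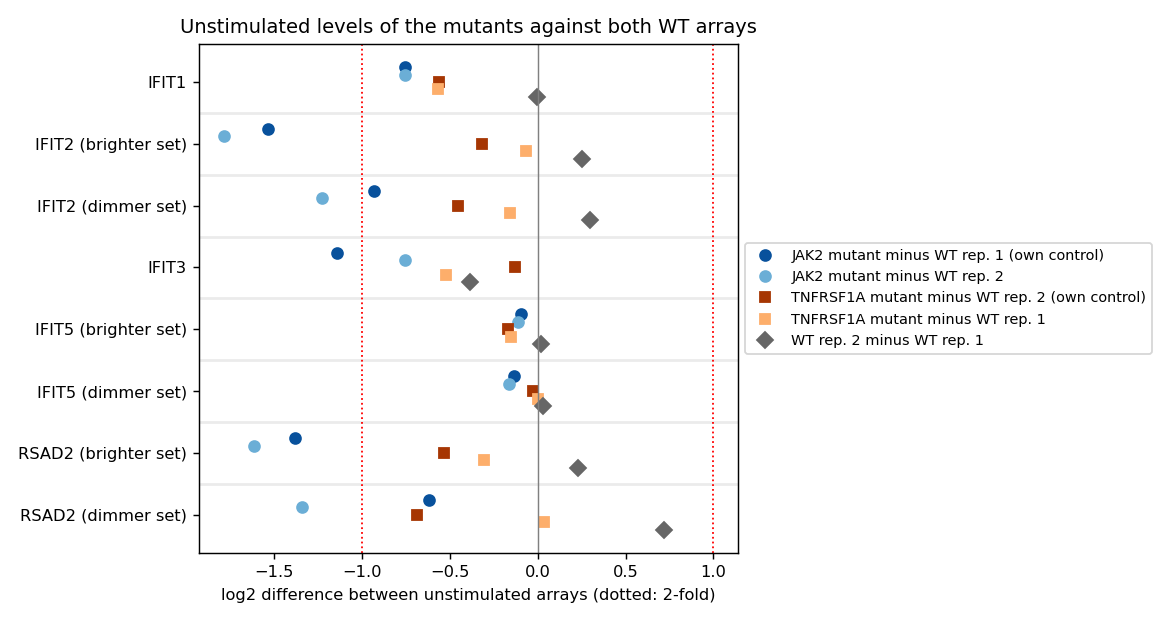
Log2 differences between unstimulated arrays for each probe set; round points are the JAK2 mutant and squares the TNFRSF1A mutant, each minus both WT replicates, and diamonds are WT replicate 2 minus WT replicate 1. The JAK2 mutant points of the brighter IFIT2 and RSAD2 sets lie left of the 2-fold line with both WT arrays, and the IFIT5 points lie near 0.

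TNF-alpha raised or lowered no member in either genotype. In the TNFRSF1A mutant the log2 differences were 0.11 for IFIT1, 0.07 for IFIT3, 0.02 for IFIT2, -0.08 for IFIT5 and -0.13 for RSAD2, where 0% of all genes were called. In WT cells they were 0.26 for IFIT3, 0.23 for IFIT2, 0.03 for IFIT5, -0.01 for IFIT1 and -0.17 for RSAD2, where 0.312% of all genes were raised and 0.00867% lowered. All lay within the WT spread of 0.38. Against WT replicate 1 in place of replicate 2, IFIT2 with TNF-alpha in WT stood at 0.49 and IFIT3 at -0.13. Genes fixed as a check of the TNF-alpha response (NFKBIA, TNFAIP3, NFKB1, ICAM1 and CXCL10) were 0 of 5 raised in the TNFRSF1A mutant, with a median of 0.18, and 5 of 5 raised in WT, with a median log2 difference of 2.49. CXCL10 reached the level required for comparison only in WT with TNF-alpha and in WT with IFN-gamma. With TNF-alpha in both, the TNFRSF1A mutant had all 5 members below WT on their brighter or only sets by 0.27 to 0.53 on the log2 scale, none at 2-fold, where 0.919% of all genes were lowered and 0.304% raised. The dimmer IFIT5 set lay 0.17 above WT in that comparison, and the mean of both IFIT5 sets gave -0.05. The limma interaction for TNF-alpha passed none of 11529 genes, with 40 at an unadjusted p under 0.05, and the members' values ran from -0.34 for IFIT2 to 0.12 for IFIT1.

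**Figure D5:**
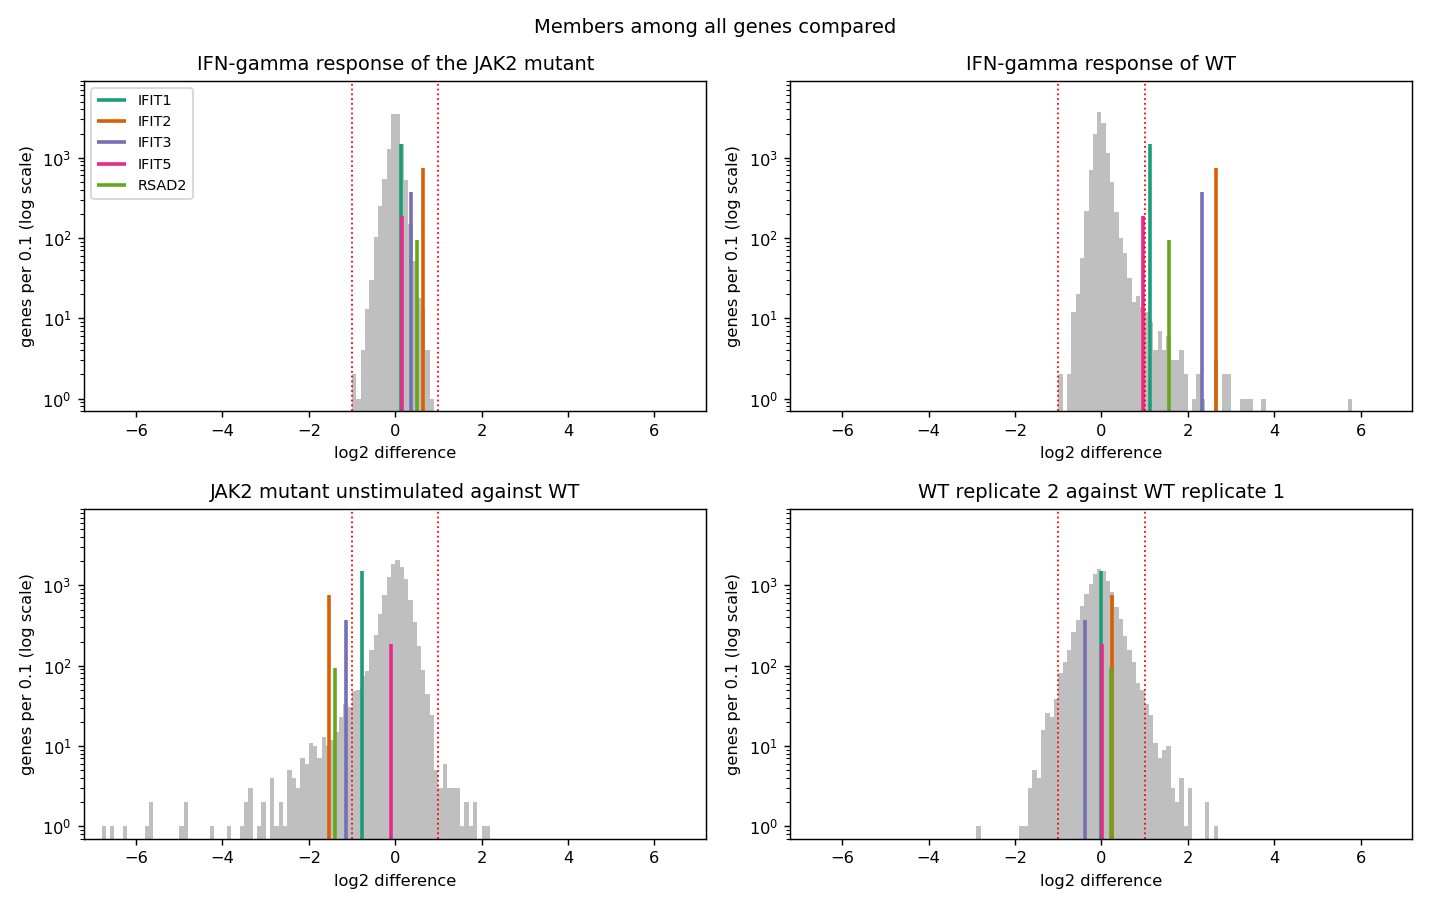
Number of genes per 0.1 of log2 difference (log axis) in 4 comparisons, with the 5 members as coloured lines whose height has no meaning and dotted lines at 2-fold. Members sit in the upper tail with IFN-gamma in WT, all within 0.65 of 0 with IFN-gamma in the JAK2 mutant, where IFIT2 and RSAD2 are in the upper tail, in the lower tail in the unstimulated JAK2 mutant except IFIT5, and within 0.39 of 0 between the WT replicates.

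Between the WT replicates themselves no member differed by 2-fold, where 0.954% of all genes were higher and 1.03% lower in replicate 2. IFIT3 differed by -0.39 as replicate 2 minus replicate 1, IFIT2 by 0.25 and RSAD2 by 0.23 on their brighter sets, and IFIT1 and IFIT5 by less than 0.02. The dimmer RSAD2 set differed by 0.72, the largest gap among the 8 sets.

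The neighbours of the members on the chromosomes were set beside them. CMPK2, a mitochondrial nucleotide kinase gene that starts beside RSAD2 on the opposite strand and is known to be induced with it, differed by 0.25 with IFN-gamma in the JAK2 mutant and by 1.09 in WT on the log2 scale, and by -0.56 between the unstimulated JAK2 mutant and WT. Its other 2 probe sets gave 0.13 in WT, within the background range in all 8 arrays, and -0.38 in WT on a set above that range in 3 arrays. RNF144A, downstream of RSAD2, gave -0.03 with IFN-gamma in WT. IFIT1B, an IFIT family gene between IFIT3 and IFIT1, lay within the background range in all 8 arrays, with log2 intensities of 3.92 to 4.28. Its promoter is shown as a contrast, for it holds none of the motifs searched.
IFIT1B, chr10:89377896-89378065, plus strand: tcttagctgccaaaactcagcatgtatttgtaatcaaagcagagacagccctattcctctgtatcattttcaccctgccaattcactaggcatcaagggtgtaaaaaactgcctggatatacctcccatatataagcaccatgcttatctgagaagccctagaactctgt
LIPA, the lysosomal acid lipase gene, whose span in the gene table (chr10:89213572-89414679) overlaps the cluster, gave 0.07 with IFN-gamma in WT cells, and PANK1, beyond IFIT5, gave -0.32. Of the neighbours measured above background, CMPK2 alone was raised, and against WT replicate 2 its difference in WT was 0.97, which misses 2-fold.

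The genes whose profile over the 8 arrays came closest to each member, by the root mean square difference of centred log2 values, differed between members. For IFIT2 they were IFIT3 (0.35), RSAD2 (0.37) and GBP3 (0.37), so 2 of the 3 were members. For IFIT3 they were EPSTI1, PLAAT4 and the transcription factor gene IRF1 (0.30). EPSTI1 and PLAAT4 lay above the background range in 1 of 8 arrays, so no distance is given for them. IFIT1 was closest to the immunoproteasome subunit gene PSMB9 (0.14), to CRYBG1 (0.19) and to UBE2L6 (0.19), the conjugating enzyme for ISG15. RSAD2 was also closest to PSMB9 (0.22), followed by HAPLN3 (0.24) and CRYBG1 (0.25). IFIT5 was closest to BTN3A2 (0.08), the immunoproteasome subunit gene PSMB10 (0.08) and SHFL (0.10). The median distance over all genes was 0.61 for IFIT1, 1.16 for IFIT2, 1.02 for IFIT3, 0.39 for IFIT5 and 0.84 for RSAD2. CRYBG1 lay above the background range in 3 of 8 arrays and GBP3 in 5, so their distances rest partly on background values. These are descriptions of 8 arrays that share their controls.

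Among the genes that carry the interferon signal, IFN-gamma raised 0 of 11 compared in the JAK2 mutant, with a median log2 difference of 0.01, and 3 of 11 in WT, with a median of 0.09. Those 3 were IRF1 with 2.87, IRF9, the DNA-binding part of ISGF3, with 1.53, and IRF7 with 1.37. Other IRF9 sets gave 1.70 in WT, and 0.84 and 0.43, which miss 2-fold on sets above the background range in all 8 arrays. Other IRF1 sets gave 4.05 and 2.94 in WT, and -0.24 on a set within the background range in all 8 arrays. The 6 interferon genes that were measured lay within the background range in all 8 arrays. Of 11 genes for partner proteins of IFITs and RSAD2, CMPK2 was the 1 raised in WT with IFN-gamma, and the median was -0.03. None of the 3 mRNA cap enzyme genes compared was raised, CMTR1 with 0.13.

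Other antiviral genes induced by interferons gave a measure of how the members sat among their class. Of 29 measured, 24 reached the level required for comparison. MX1, MX2, OAS3, IFI44L and SAMD9L did not, and they lay within the background range in all 8 arrays. With IFN-gamma in the JAK2 mutant 0 of 24 were raised, with a median log2 difference of 0.04, and in WT cells 8 of 24 were raised, with a median of 0.51. Those named here are PARP9 (2.29), DTX3L (1.42) and IFI35 (1.39), with XAF1 and EPSTI1. The last 2 lay above the background range only in WT with IFN-gamma and so were at least 3.06-fold and 2.17-fold higher there than in WT replicate 1. They reached the required level only in that array, and they are among both the 8 raised there and the 11 lowered below. In the unstimulated JAK2 mutant 22 of 24 lay below WT replicate 1, with a median of -0.36, but none by 2-fold. Against WT replicate 2 it was 14 of 24, with a median of -0.05, so this shift depends on the control. The same genes had a median of -0.32 as WT replicate 2 minus replicate 1. With IFN-gamma in both genotypes 11 of 24 were lowered in the mutant, with a median of -0.99. The member medians in the same comparisons were 0.36, 1.56, -1.14 and -2.43. No difference between the members and these genes was tested.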

How the data were processed

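Biotin-labelled total RNA of KBM7 cells was measured on 1-colour Affymetrix arrays. The authors deposited RMA intensities; the submitters' processing notes name Affymetrix Expression Console 1.1. The values behave as linear intensity, from 6.72 upwards, and log2 was taken; the linear scale is inferred from the values. Of the 49395 probe sets, 44994 name 1 gene, 1832 several and 2569 none in the platform annotation, and only those with 1 gene were used. A gene's value is its probe set with the highest mean over 8 arrays, called the brighter set here. Genes needed a log2 intensity of 6 or more in 1 array. Differences between single arrays were called at 2-fold; the control followed the labels' protocols. Nothing says that the 2 WT arrays came from separate cultures, so their spread may be technical or may hold differences between the 2 experiments. The number of arrays limits precision. limma 3.58.1 (R 4.3.3, lmFit and eBayes over all genes, Benjamini-Hochberg, threshold 0.05) was also run on simulated data. These had the same noise SD for every gene, so that run does not show how the limma calls behave on these arrays. Alternatives were a 1.5-fold rule, no level filter or a log2 minimum of 8, loess, the mean of probe sets, leaving out cross-binding sets, other WT controls and limma. Named genes were the members, the 2 targeted genes, the 3 nearest profiles of each member, chromosomal neighbours, and from each list those past 2-fold, up to 5, or otherwise its largest difference. Members, lists and tests were chosen with earlier results of these data known. Genes of the lists not described here were not analysed here. Promoters and positions are from RefSeq (GRCh38.p14); the build behind the array annotation is not given in the sources used here.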

Additional observations from a re-analysis of the deposited data

How the results depend on the processing

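Each comparison was repeated under the alternatives. Of 324 values for single members, 8 changed sign, 7 of them in TNF-alpha results. Each of the 8 was below 0.27 in size as reported. Many of the 324 could not change. The level filters leave each member's difference as it was. So does the mean of probe sets for IFIT1 and IFIT3, which have 1 set each. Leaving out cross-binding sets changes nothing for IFIT1, IFIT2 and IFIT5. The total of genes called is given first, raised and lowered together. With a 1.5-fold rule it was 44 for IFN-gamma in the JAK2 mutant (1 member, against 0 genes at 2-fold), 175 for IFN-gamma in WT (against 70), 5 for TNF-alpha in the TNFRSF1A mutant (against 0), 135 for TNF-alpha in WT (against 37), 710 for the unstimulated JAK2 mutant (against 246), 442 for the unstimulated TNFRSF1A mutant (against 113), 963 for the JAK2 mutant against WT with IFN-gamma (against 348), 434 for the TNFRSF1A mutant against WT with TNF-alpha (against 141) and 1289 between the WT replicates (against 229). With a log2 minimum of 8, which tests fewer genes, it was 140 for the unstimulated JAK2 mutant, 62 for the unstimulated TNFRSF1A mutant, 216 for JAK2 mutant against WT with IFN-gamma and 87 for TNFRSF1A mutant against WT with TNF-alpha, and each interaction passed 1 gene. With the mean of probe sets it was 156, 61 and 222 in the first 3 of these and 116 between the WT replicates, and the TNF-alpha interaction passed 1 gene. With the other WT array as control it was 755 for the unstimulated JAK2 mutant, 196 for the unstimulated TNFRSF1A mutant, 271 for IFN-gamma in WT and 243 for TNF-alpha in WT, the last being 58 with the mean of both. The limma fit passed 19 and 5 genes in the unstimulated JAK2 and TNFRSF1A mutants, 21 and 4 in the mutants against WT with IFN-gamma and TNF-alpha, and 1 each for the IFN-gamma and TNF-alpha responses of WT. It passed 0 members for IFN-gamma in WT and for the unstimulated JAK2 mutant, and 1 with IFN-gamma in both genotypes.

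Without the probe sets that may cross-bind, IFIT3 has no value and RSAD2 rests on its dimmer set, which leaves 1 member lowered in the unstimulated JAK2 mutant and 3 raised by IFN-gamma in WT. RSAD2 then showed 0.02 with IFN-gamma in the JAK2 mutant and 1.15 in WT. The TNF-alpha interaction of IFIT5 turned to 0.034 with the mean of probe sets, against -0.113; the cause was not tested. Without either WT array in turn, the IFN-gamma interaction of IFIT3 was -2.36 without replicate 1 and -1.98 without replicate 2, and its TNF-alpha interaction -0.19 and 0.20, with no residual degrees of freedom and so no test. No paired analysis was possible because the groups compared share fewer than 2 replicate numbers. Signal over background limits the dimmer IFIT2 set.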
